A study of Mus musculus with 16 samples.

Results

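The 9 genes described here encode enzymes that cross-link the extracellular matrix, enzymes that cut it, and inhibitors of the cutting enzymes. They are the lysyl oxidases Lox, Loxl1, Loxl2 and Loxl3, the matrix metalloproteinases Mmp2, Mmp9 and Mmp14, and the tissue inhibitors of metalloproteinases Timp1 and Timp2. They were picked by name, and their probes were those whose RefSeq accession belongs to one of them, 14 probes in all. Of the 9 members 8 could be tested, among 21281 genes tested in the series, and Mmp9 was too dim. Expression was read in the quadriceps of male mice aged 8 weeks, on single-colour Agilent arrays that measure the RNA bound to each probe as fluorescence. Wild-type (WT) mice were compared with mice whose skeletal muscle has been made to lack 3 FoxO transcription factor genes, Foxo1, Foxo3 and Foxo4 (mFoxO-TKO in the sample titles, mFoxO1,3,4-/- in the protocols). Each genotype was either fed freely or kept without food for 24 h, with 4 arrays in each of the 4 groups. The knockout is described as specific to skeletal muscle, which would leave the genes in the fibroblasts, vessels and blood cells of the same tissue, and what drives the deletion is not given in the sources used here.

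Lysyl oxidases are secreted copper enzymes that oxidise lysine side chains of collagen and elastin. The products react with each other and tie the fibres into an insoluble matrix. Metalloproteinases are zinc enzymes made as inactive precursors, and Mmp14 sits in the cell membrane, where together with Timp2 it activates Mmp2. In muscle many of these genes are expressed by connective tissue cells between the fibres. Which cells gave the signals read here was not tested. A lower signal in whole muscle may come from fewer cells of a type or from less RNA per cell, which cannot be told apart here.

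All levels below are log2 signals minus the array's 75th percentile, so that 0 is the signal at that percentile and a step of 1 is a 2-fold difference. A change is the difference of group means ± SE, the standard error from a limma fit (n = 4 in each group). A gene passed at a Benjamini-Hochberg adjusted p under 0.05 over all genes tested. Levels are compared within a probe only, since probes differ in how brightly they report. The arrays were printed on 2 slides. Slide 1 carried replicates 1 and 2 and slide 2 carried replicates 3 and 4 of each group, and differences within a slide are given where they matter. Each group occupied 1 column of a slide, and position cannot be told apart from group. The labels do not say that each array is a separate mouse, and p-values describe the spread between the samples arrayed. Spots well above background made up 45% of an array at the lowest, on fasted mFoxO-TKO replicate 1, and 75.2% at the highest, on fasted WT replicate 4. The brighter Foxo1 probe gave 0.66 to 2.12 on the mFoxO-TKO arrays and 2.66 to 5.98 on the WT arrays, with no overlap. The dimmer Foxo1 probe gave 0.30 to 1.44 in fed mFoxO-TKO and 1.97 to 2.56 in fed WT mice. In fasted mice it gave 1.89 to 2.23 and 4.33 to 5.51. On this probe the genotypes did not overlap within a feeding state, but fasted mFoxO-TKO and fed WT arrays did. Foxo4 was well above background on none of the 8 mFoxO-TKO arrays. The dim Foxo3 probe read higher, not lower, in the fed arrays labelled mFoxO-TKO, at -3.67 to -3.06 in mFoxO-TKO and -4.46 to -3.90 in WT mice, and overlapped in fasted mice (-3.06 to -2.28 and -2.81 to -1.27). Whether each probe falls inside the deleted sequence is unknown here, and a probe elsewhere in the gene does not check the label. The 14 muscle fibre markers were all detected, and 0 of them passed with limma in any comparison (0 at an unadjusted p under 0.05 in fasting, 2 higher in the knockout among fasted mice).

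**Figure D1:**
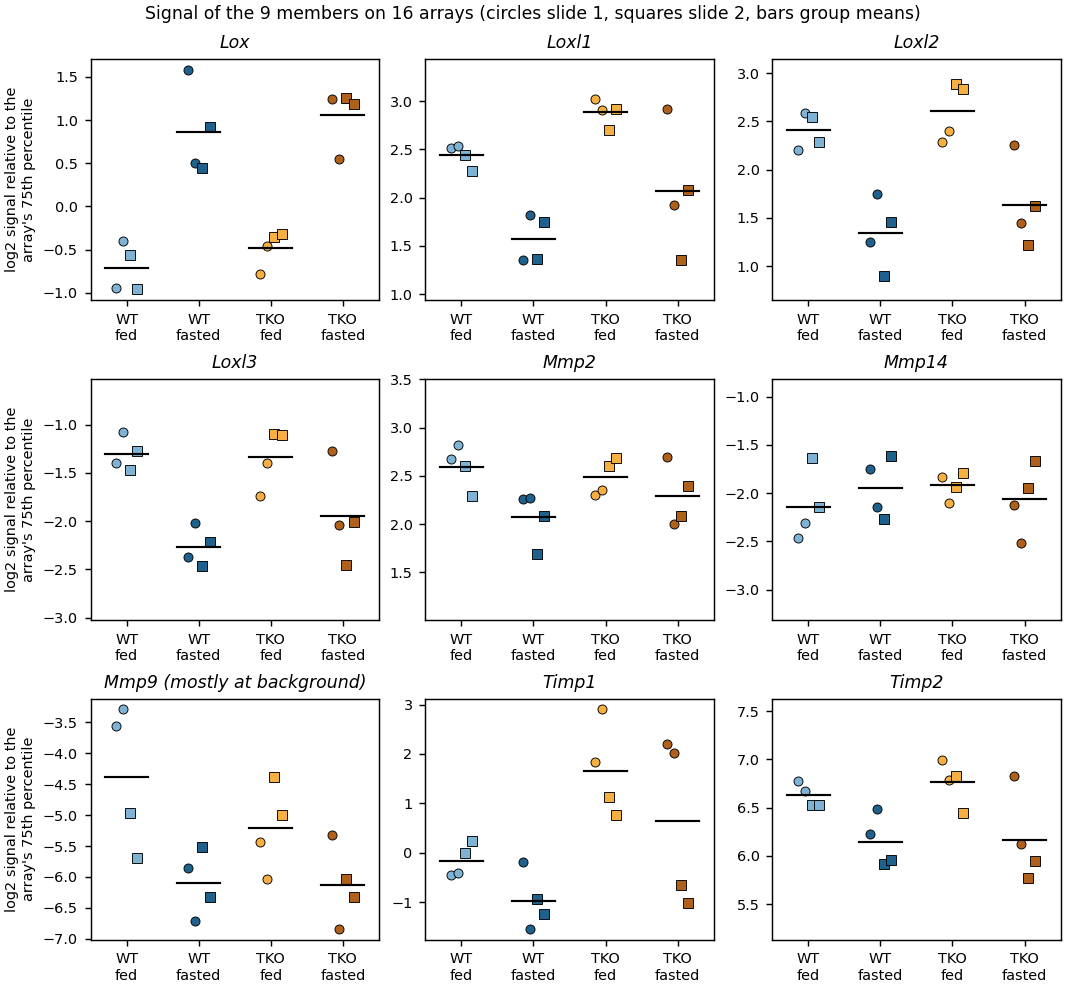
Levels of the 9 members on the 16 arrays, as log2 signal relative to the array's 75th percentile, by group. Each point is an array (circles slide 1, squares slide 2) and bars are group means. Lox is higher on all 8 fasted arrays than on all 8 fed arrays, while the fasted WT arrays of Loxl1, Loxl2 and Loxl3 all lie below the fed WT arrays.

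Fasting moved the lysyl oxidases in opposite directions. Lox rose about 3-fold in both genotypes, whereas Loxl1 and Loxl2 fell in both and Loxl3 fell in WT mice. Of the 8 members tested, 1 rose, 3 fell and 4 did not pass in fasted against fed WT mice, where 20.8% of all genes passed (11.2% higher and 9.57% lower). Of those calls 54% were higher, and 37.5% when arrays were scaled on probes detected on all of them, a scaling that moved the median change of all genes from 0.02 to -0.11 without turning the direction of a member that passed. In mFoxO-TKO mice 1 rose, 2 fell and 5 did not pass, where 8.52% of all genes passed (4.29% higher and 4.23% lower, with 50.4% of calls higher and 63.9% after normexp background correction). In WT mice 1 member stood higher and 5 stood lower on every fasted than on every fed array, where 15.2% and 13% of all genes did so. In mFoxO-TKO mice 1 stood higher and 1 lower in this way, against 7.75% and 6.01% of all genes. The median change of the members was -0.66 in WT and -0.60 in mFoxO-TKO mice, against 0.02 and 0.04 over all genes.

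Lox encodes the founding enzyme of the family and acts on fibrillar collagen and elastin. Its levels were -0.95, -0.40, -0.56 and -0.96 in replicates 1 to 4 of fed WT mice and 1.58, 0.50, 0.44 and 0.92 in fasted WT mice. In mFoxO-TKO mice they were -0.78, -0.46, -0.35 and -0.32 fed and 1.24, 0.55, 1.26 and 1.19 fasted. No fed array reached the lowest fasted array in either genotype. The means of the 4 groups, from low to high, were those of fed WT (-0.72 ± 0.28, SD), fed mFoxO-TKO (-0.48 ± 0.21), fasted WT (0.86 ± 0.53) and fasted mFoxO-TKO mice (1.06 ± 0.34), and within a feeding state the genotypes overlapped. Lox rose by 1.58 ± 0.24 in WT (2.98-fold, adjusted p = 0.000305) and by 1.53 ± 0.24 in mFoxO-TKO mice (2.90-fold, adjusted p = 0.00142). Slide 1 gave rises of 1.72 and 1.52 and slide 2 of 1.44 and 1.56 in the 2 genotypes. Leaving out any 1 of the 16 arrays kept both calls, with changes between 1.34 and 1.72. A dimmer Lox probe rose by 1.59 and 1.53 (adjusted p = 0.000258 and 0.00158). The difference between the genotypes in the Lox response was -0.04 ± 0.34 (adjusted p = 0.986), with a 95% confidence interval from -0.77 to 0.69.

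Loxl1 is the relative that serves elastic fibres. On the fed WT arrays it stood at 2.51, 2.53, 2.44 and 2.28, and on the fasted ones at 1.35, 1.82, 1.36 and 1.75, with no overlap. In mFoxO-TKO mice it was 3.02, 2.91, 2.70 and 2.92 fed and 2.92, 1.92, 1.35 and 2.08 fasted. Fasted mFoxO-TKO replicate 1 lay within the fed range, and the other 3 fasted arrays lay below it. Loxl1 fell by 0.87 ± 0.24 in WT mice (1.82-fold, adjusted p = 0.0181), a call that was lost without fasted WT replicate 1 (-0.79, adjusted p = 0.055). In mFoxO-TKO mice it fell by 0.82 ± 0.24 (1.77-fold, adjusted p = 0.0471), a call lost in 15 of the 16 fits that leave out 1 array, in which changes ran from -1.11 to -0.59. The dimmer Loxl1 probe gave -0.80 (adjusted p = 0.0353) and -0.79 (adjusted p = 0.0715). Within slides the brighter probe gave -0.93 and -0.80 in WT and -0.54 and -1.09 in mFoxO-TKO mice on slides 1 and 2.

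Loxl2 and Loxl3 belong to the branch of the family with scavenger receptor domains. Loxl2, which acts on collagen IV of basement membranes, was 2.20, 2.59, 2.54 and 2.29 in fed WT and 1.25, 1.75, 0.90 and 1.46 in fasted WT mice. It was 2.29, 2.40, 2.89 and 2.84 in fed mFoxO-TKO and 2.25, 1.45, 1.22 and 1.62 in fasted mFoxO-TKO mice. On this probe, the brightest, the fed and fasted arrays did not overlap in either genotype, although fasted mFoxO-TKO replicate 1 lay just under the lowest fed array. Loxl2 fell by 1.07 ± 0.23 in WT (2.10-fold, adjusted p = 0.0036) and by 0.97 ± 0.23 in mFoxO-TKO mice (1.96-fold, adjusted p = 0.0162). The latter call was lost without fed mFoxO-TKO replicate 3 (adjusted p = 0.0552) or without fasted mFoxO-TKO replicate 3 (adjusted p = 0.0584). Its 2 dimmer probes also stood lower, each at -0.72 in WT (adjusted p = 0.1 and 0.0413) and at -0.86 and -0.52 in mFoxO-TKO mice (adjusted p = 0.0877 and 0.203). In mFoxO-TKO mice the brightest probe gave -0.49 on slide 1 and -1.45 on slide 2, against -0.90 and -1.24 in WT mice. The dimmer probes gave -0.24 and -0.03 on slide 1 and -1.48 and -1.01 on slide 2 in mFoxO-TKO mice. Their fed and fasted arrays overlapped in mFoxO-TKO mice and did not overlap in WT mice.

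Loxl3, an enzyme needed for the palate and the muscle ends in development, was dimmer. Its fed WT levels of -1.40, -1.08, -1.47 and -1.27 lay above all fasted WT levels of -2.37, -2.02, -2.47 and -2.22. The mFoxO-TKO levels were -1.74, -1.40, -1.10 and -1.11 fed and -1.27, -2.04, -2.45 and -2.01 fasted. Again 3 of the 4 fasted mFoxO-TKO arrays lay below the fed range and replicate 1 lay inside it. Loxl3 fell by 0.97 ± 0.22 in WT mice (1.95-fold, adjusted p = 0.00498, -0.96 and -0.98 on slides 1 and 2). The change of -0.61 ± 0.22 in mFoxO-TKO mice did not pass (adjusted p = 0.107). It was -0.09 on slide 1 and -1.12 on slide 2, and without fasted mFoxO-TKO replicate 1 it was -0.83 (adjusted p = 0.0099). The test of the difference between genotypes gave 0.36 ± 0.31 (adjusted p = 0.801, interval -0.30 to 1.02), so the missed threshold in mFoxO-TKO mice does not show a different response.

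**Figure D2:**
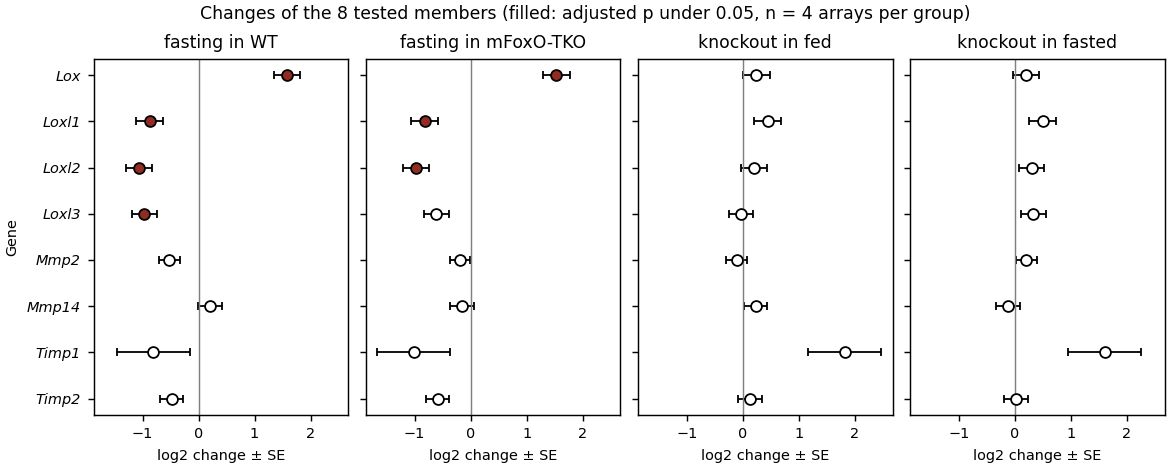
Log2 changes of the 8 tested members in 4 comparisons, each as the difference of group means ± SE (limma, n = 4 in each group), with filled points at an adjusted p under 0.05. Lox stands to the right and Loxl1, Loxl2 and Loxl3 to the left of 0 under fasting in both genotypes, and no member passes in the knockout comparisons.

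Because Lox and its relatives moved apart, the difference between them on the same array separated fed from fasted muscle. The log2 signal of Lox minus the mean of Loxl1, Loxl2 and Loxl3 averaged -1.90 ± 0.19 (SD, n = 4) in fed WT and 0.65 ± 0.63 in fasted WT mice. In mFoxO-TKO mice it averaged -1.86 ± 0.08 fed and 0.47 ± 0.58 fasted. The highest of the 8 fed arrays was at -1.72 and the lowest of the 8 fasted arrays at -0.06. The level of this quantity depends on how brightly each probe reports, and only its shift between groups can be read. It was built after the changes of its parts were known and carries no test.

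**Figure D3:**
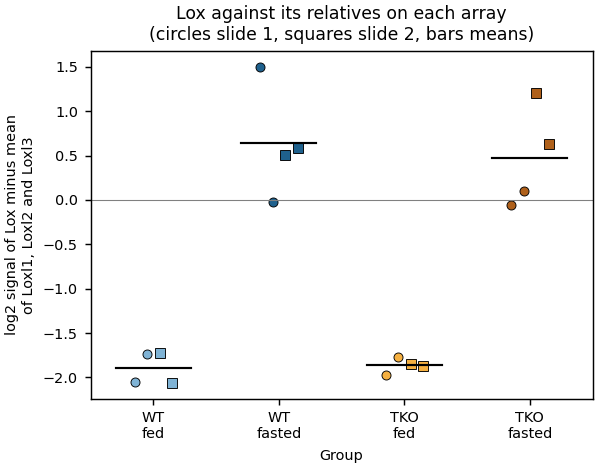
Log2 signal of Lox minus the mean of Loxl1, Loxl2 and Loxl3 on each of the 16 arrays, by group (circles slide 1, squares slide 2, bars group means). The 8 fed arrays lie between -2.06 and -1.72 and the 8 fasted arrays between -0.06 and 1.5.

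Genes with the most similar course over the 16 arrays were found by the root mean square difference between centred log2 levels, which is 0 for identical courses. For Lox they were Enc1 at 0.26, then Ackr2 and Hoga1 at 0.31, where the root mean square of Lox itself was 0.84. Enc1, an actin-binding gene, rose by 1.72 ± 0.20 in WT and 1.36 ± 0.20 in mFoxO-TKO mice (adjusted p = 3.31e-05 and 0.00105). Ackr2, a decoy receptor of chemokines, rose by 1.70 and 1.44, and Hoga1, an enzyme of hydroxyproline breakdown, by 1.56 and 1.36 (adjusted p at most 0.00193). For Loxl2 the nearest genes were Spats2l at 0.15 and Cnn2 and Slc6a13 at 0.18 (0.60 for Loxl2 itself), and Loxl3 ranked 8th at 0.19. For Loxl1 they included Mbd4 and Rab32, each at 0.19 (0.58 for Loxl1 itself). For Loxl3 they were Antxr1 at 0.13, a collagen-binding membrane protein, Poglut3 at 0.15 and Naalad2 at 0.16 (0.49 for Loxl3 itself). These ranks are descriptions over arrays that share slides and groups.

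Many genes of the matrix itself fell with Loxl1, Loxl2 and Loxl3 and not with Lox. Of 24 collagen, elastic fibre and associated genes, 17 fell, 0 rose and 7 did not pass in fasted WT mice, with a median of -1.06. In mFoxO-TKO mice 12 fell, 0 rose and 12 did not pass, with a median of -1.13. Col6a3, which encodes a chain of the microfibrillar collagen VI, fell by 2.24 ± 0.37 in WT and by 1.97 in mFoxO-TKO mice (adjusted p = 0.000496 and 0.00424). Col3a1, a fibrillar collagen of soft tissue, fell by 1.98 ± 0.47 and 1.96 ± 0.47 (adjusted p = 0.00797 and 0.0193, with 1 array left out in fed WT and in fasted mFoxO-TKO mice). Col14a1 fell by 2.37 ± 0.59 and 2.09 ± 0.59 (adjusted p = 0.00921 and 0.0387). Col6a2 fell by 2.11 ± 0.35 in WT and by 1.65 ± 0.35 in mFoxO-TKO mice (adjusted p = 0.000542 and 0.00871). Col15a1 fell by 1.79 ± 0.50 in WT and by 2.05 ± 0.50 in mFoxO-TKO mice (adjusted p = 0.0172 and 0.0177). Within slide 1 the list's median was -0.85 in WT and -0.77 in mFoxO-TKO mice, and within slide 2 it was -1.37 and -1.38. The mFoxO-TKO calls of Col14a1 were lost in 11 of the 16 fits without 1 array (-2.17 to -1.66, adjusted p up to 0.126). Those of Col3a1 were lost without fed replicates 2 or 3 or fasted replicates 3 or 4 (-1.99 to -1.62, adjusted p up to 0.0914), and those of Col15a1 without fed replicate 2 or fasted replicate 3 (adjusted p = 0.05 and 0.0535).

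Among partners of cross-linking several fell and none rose. The list of 15 holds Loxl4, the lysyl hydroxylases that prepare collagen for cross-links, and proteins that bring lysyl oxidases to the fibre or process them. In fasted WT mice 7 fell, 0 rose and 8 did not pass (median -0.36), and in mFoxO-TKO mice 4 fell, 0 rose and 11 did not pass (median -0.11, but 0.23 within slide 1 and -0.41 within slide 2). Pcolce, an enhancer of procollagen processing by Bmp1, fell by 1.69 ± 0.31 in WT (3.23-fold, adjusted p = 0.00115) and by 1.24 ± 0.31 in mFoxO-TKO mice (adjusted p = 0.0219). Postn, which binds Bmp1 at the collagen fibre, fell by 1.58 ± 0.39 (adjusted p = 0.01) and by 1.73 ± 0.45 (adjusted p = 0.029, with 1 array of each mFoxO-TKO group left out). Efemp2 (fibulin-4), which recruits Lox to elastic fibres, fell by 1.01 ± 0.31 (adjusted p = 0.0354) and by 1.63 ± 0.31 (adjusted p = 0.00629, with 1 array of fasted WT and of fed mFoxO-TKO mice left out). Pxdn, which cross-links collagen IV, fell by 1.0 ± 0.30 in WT mice (adjusted p = 0.0265). Fibronectin (Fn1) fell by 0.92 ± 0.23 in WT and by 0.82 ± 0.23 in mFoxO-TKO mice (adjusted p = 0.00948 and 0.0382). The calls of Efemp2 and Pxdn in WT mice and of Fn1 in mFoxO-TKO mice were each lost in 6 of the 16 fits without 1 array (adjusted p up to 0.11, 0.0832 and 0.122). In mFoxO-TKO mice those of Pcolce and Postn were lost in 4, without fed replicates 2 or 3 or fasted replicate 3 and, for Pcolce, fasted replicate 4 or, for Postn, fasted replicate 2 (adjusted p up to 0.0718 and 0.116).

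Genes for collagen folding and prolyl hydroxylation, the steps in the endoplasmic reticulum before secretion, were split. Of 14 genes 5 fell, 0 rose and 9 did not pass in WT mice (median -0.13), and 3 fell, 0 rose and 11 did not pass in mFoxO-TKO mice (median -0.30). Serpinh1 (HSP47), the collagen chaperone, fell by 1.38 ± 0.28 in WT (adjusted p = 0.00217) and by 1.11 ± 0.28 in mFoxO-TKO mice (adjusted p = 0.0206, lost without fed replicates 2 or 3 or fasted replicates 3 or 4, adjusted p up to 0.0709). Fkbp14, a prolyl isomerase, fell by 1.17 ± 0.21 and 1.08 ± 0.23 (adjusted p = 0.00111 and 0.00883, with 1 fasted mFoxO-TKO array left out). Crtap and P3h3, of prolyl 3-hydroxylation, fell by 1.06 and 0.84 in WT mice (adjusted p = 0.00378 and 0.0108). Fkbp10 fell by 0.79 in WT and by 0.90 in mFoxO-TKO mice (adjusted p = 0.0119 and 0.013). The WT calls of Serpinh1, Fkbp14, Crtap and P3h3 were kept without any 1 array.

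Some markers of connective tissue cells fell as well. Of 14 fibroblast markers, 3 of which are also on the collagen list, 5 fell, 1 rose and 8 did not pass in WT mice (median -0.43), and 4 fell, 1 rose and 9 did not pass in mFoxO-TKO mice (median -0.54). Among them Lum, a collagen-binding proteoglycan, fell by 2.59 ± 0.33 and 2.18 ± 0.33 (adjusted p = 6.64e-05 and 0.0012). Pdgfra stood at -0.45 and -0.25 and did not pass in WT mice (adjusted p = 0.14). Both are examples from the list, which the counts above describe. The summed linear level of the 14 markers, in the units of the scaled signal, ran from 61000 to 91700 in fed and from 54700 to 75600 in fasted WT mice. It ran from 59000 to 65900 in fed and from 50300 to 65600 in fasted mFoxO-TKO mice. These sums overlapped over both slides, but in WT mice they did not overlap within a slide (79500 and 91700 fed against 72800 and 75600 fasted on slide 1, 61000 and 61200 against 54700 and 58600 on slide 2). The mean log2 level of the 14 markers, which weights them equally, did not overlap in WT mice (3.77 to 4.32 fed and 3.31 to 3.74 fasted), and it overlapped in mFoxO-TKO mice (3.77 to 4.10 and 3.15 to 3.85). Of 7 tendon markers, 1 of them on the partner list, 5 fell, 0 rose and 2 did not pass in WT mice (median -1.03), with sums of 9720 to 11800 fed and 4900 to 8490 fasted. In mFoxO-TKO mice 1 of the 7 fell and 6 did not pass, with overlapping sums of 8050 to 13300 fed and 8150 to 14900 fasted. Of the 10 endothelial, 9 smooth muscle and pericyte, 5 satellite cell, 6 fat cell and 6 Schwann cell markers tested, at most 1 of each list rose and at most 1 fell in either fasting comparison. The part of cell numbers in the falls of the collagens and of Loxl1, Loxl2 and Loxl3 was not tested.

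**Figure D4:**
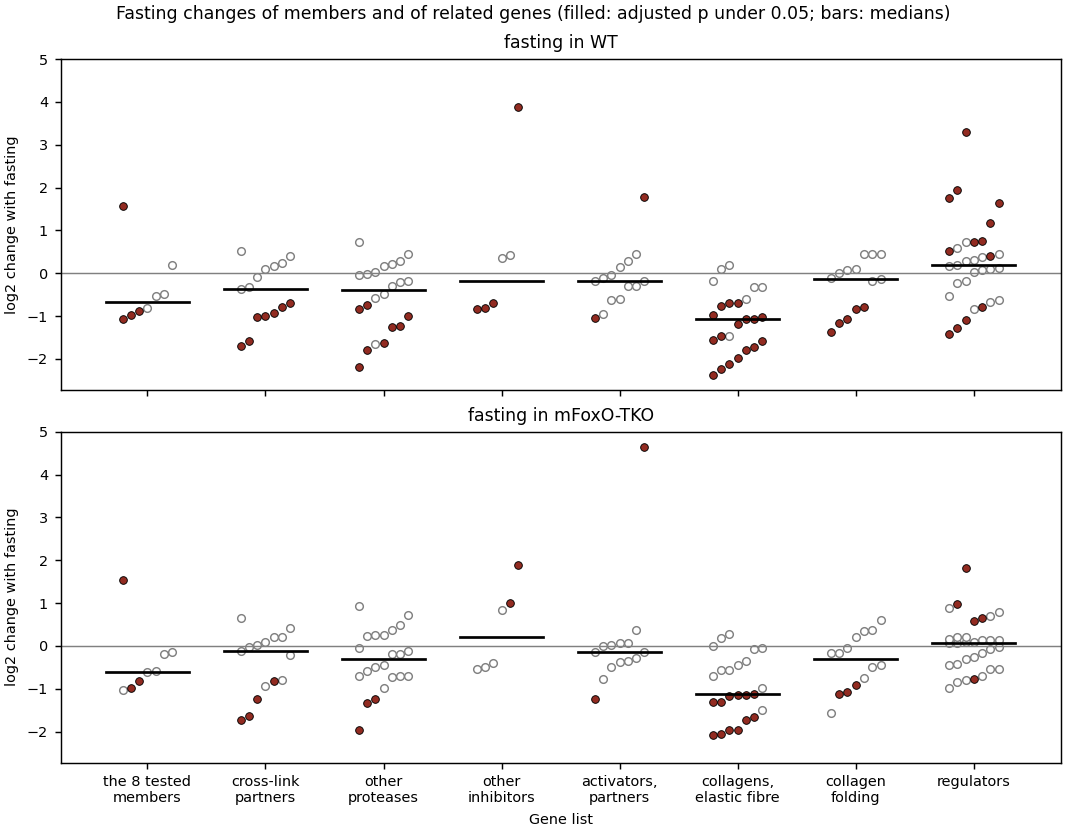
Log2 change with fasting of the 8 tested members and of the genes of 7 related lists, in WT mice (top) and mFoxO-TKO mice (bottom). Each point is a gene, filled at an adjusted p under 0.05, and bars are medians. The collagen and elastic fibre list has medians of -1.06 and -1.13, while Lox is the only filled point above 0 among the members.

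The gelatinase Mmp2 and its membrane-bound activator Mmp14 did not pass in any comparison. Mmp2, which degrades denatured collagen and collagen IV, was 2.67, 2.82, 2.60 and 2.29 in fed and 2.26, 2.27, 1.69 and 2.08 in fasted WT mice. In mFoxO-TKO mice it was 2.30, 2.35, 2.60 and 2.68 fed and 2.69, 2.0, 2.08 and 2.39 fasted. Fed and fasted arrays did not overlap in WT mice, by a narrow margin, and did overlap in mFoxO-TKO mice. The WT difference was -0.52 ± 0.18 (1.43-fold lower, adjusted p = 0.0565), close to the threshold. It passed in the deposited values (-0.65, adjusted p = 0.00563), with scaling on detected probes (-0.65, 0.00723), after quantile normalization (-0.62, 0.0142) and with uneven spots kept (-0.57, 0.0228). It also passed with slide as a block, with the stricter filter and with a variance trend (adjusted p = 0.0419, 0.0446 and 0.0463), and without fed WT replicate 4 or fasted mFoxO-TKO replicate 1 (adjusted p = 0.0412 and 0.0296). Under the other alternatives it did not pass, with an adjusted p of up to 0.36. In mFoxO-TKO mice the difference was -0.19 ± 0.18 (adjusted p = 0.599), and the genotypes' responses differed by 0.33 ± 0.26 (adjusted p = 0.775, interval -0.22 to 0.88).

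Mmp14 (MT1-MMP) was dim but measured. Its levels ran from -2.47 to -1.64 in fed and from -2.27 to -1.61 in fasted WT mice, and from -2.10 to -1.79 in fed and -2.52 to -1.67 in fasted mFoxO-TKO mice. The 4 groups overlapped. Its fasting differences were 0.20 ± 0.21 and -0.15 ± 0.21 (adjusted p = 0.593 and 0.743). The 95% intervals of the fasting differences ran from -0.26 to 0.65 and from -0.60 to 0.30.

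Mmp9, the gelatinase of neutrophils and macrophages, was at or near background. Its probe was well above background on 3 fed WT and 2 fed mFoxO-TKO arrays and on none of the 8 fasted arrays. Fed WT mice read -3.55, -3.29, -4.96 and -5.70 and fasted WT mice -5.85, -6.71, -5.52 and -6.33. Fed replicate 4 lay below fasted replicate 3, so the WT groups overlapped, and no fold is given. Levels in mFoxO-TKO mice were -5.44, -6.03, -4.39 and -4.99 fed and -5.32, -6.84, -6.04 and -6.33 fasted. Without the filter on dim probes the WT difference was -1.73 ± 0.53 (adjusted p = 0.0542). Of 12 neutrophil markers 5 could be tested and 0 passed with limma in either fasting comparison (1 higher at an unadjusted p under 0.05 in each), and Ltf was well above background on 0 of 16 arrays. The summed level of those 5 ran from 12200 to 12700 in fed and from 12800 to 16500 in fasted WT mice, and from 9090 to 13200 and 12000 to 17000 in mFoxO-TKO mice. The mean log2 level of the same 5 markers overlapped in both genotypes. It ran from -0.11 to 0.63 in fed and from 0.24 to 1.04 in fasted WT mice, and from 0.27 to 0.54 and 0.24 to 1.13 in mFoxO-TKO mice. The part of neutrophils in the Mmp9 readings was not tested.

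Other proteases of the matrix fell more often than they rose. Of 34 metalloproteinases listed, 22 could be tested, and in WT mice 8 fell, 0 rose and 14 did not pass (median -0.39). In mFoxO-TKO mice 3 fell, 0 rose and 19 did not pass (median -0.32), or 6 and 1 without fasted replicate 1. Adamts8 fell by 2.20 ± 0.31 in WT mice (4.58-fold, adjusted p = 0.000141). Mmp23, a membrane-anchored member, fell by 1.62 ± 0.29 in WT (adjusted p = 0.000894) and by 1.23 ± 0.29 in mFoxO-TKO mice (adjusted p = 0.0151, lost without fed or fasted replicate 3, adjusted p = 0.0501 and 0.0543). Adamts14, which trims procollagen, fell by 1.25 ± 0.32 and 1.97 ± 0.32 (adjusted p = 0.0116 and 0.00179). Adamts20 fell by 1.79 ± 0.43 in WT mice (adjusted p = 0.00775). Adam19 fell by 1.22 ± 0.21 in WT (adjusted p = 0.000855) and by 1.32 ± 0.23 in mFoxO-TKO mice (adjusted p = 0.00262, with 1 fasted array left out).

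Timp1 and Timp2 are the 2 inhibitors among the members, and neither passed in any comparison. Timp2, which both inhibits Mmp2 and helps Mmp14 to activate it, was 6.78, 6.67, 6.53 and 6.53 in fed and 6.23, 6.48, 5.92 and 5.96 in fasted WT mice, and 6.99, 6.79, 6.83 and 6.44 in fed and 6.83, 6.12, 5.77 and 5.95 in fasted mFoxO-TKO mice. Fed and fasted WT arrays did not overlap, and 3 of the 4 fasted mFoxO-TKO arrays lay below the fed range. The differences of -0.48 ± 0.21 in WT and -0.59 ± 0.21 in mFoxO-TKO mice did not pass (adjusted p = 0.122 and 0.0964). With slide as a block both passed (adjusted p = 0.0321 and 0.0214), as they did without fasted mFoxO-TKO replicate 1 (-0.48 and -0.81, adjusted p = 0.0325 and 0.00661). Of 26 alternative limma fits, single slides aside, 7 passed in each genotype (adjusted p from 0.00147 to 0.252 in WT and from 0.00281 to 0.245 in mFoxO-TKO mice). The dimmer Timp2 probe fell by 0.57 ± 0.18 in WT mice (adjusted p = 0.0343) and stood at -0.59 ± 0.18 in mFoxO-TKO mice (adjusted p = 0.0567).

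Timp1, an inhibitor that cells make in response to inflammatory signals and injury, had the widest range of the 8 members tested. Fed WT mice were at -0.46, -0.42, -0.01 and 0.23 and fasted WT mice at -0.18, -1.54, -0.94 and -1.24. Fed mFoxO-TKO mice were at 1.83, 2.90, 1.13 and 0.77, above every fed WT array. Fasted mFoxO-TKO mice split by slide, with 2.20 and 2.01 on slide 1 and -0.66 and -1.02 on slide 2, the latter within the fasted WT range. Timp1 was 1.82 ± 0.65 higher in mFoxO-TKO than in WT mice when fed (3.53-fold, unadjusted p = 0.0137, adjusted p = 0.294, interval 0.43 to 3.21) and 1.61 ± 0.65 higher when fasted (3.05-fold, unadjusted p = 0.0262, adjusted p = 0.154). Neither passed. Its fasting differences were -0.81 ± 0.65 and -1.02 ± 0.65 (adjusted p = 0.446 and 0.402).

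The genotype difference of Timp1 lay mostly on slide 1. It was 2.81 on slide 1 and 0.84 on slide 2 in fed mice, and 2.96 and 0.25 in fasted mice. A term for the change of the genotype effect between slides, chosen after these values were seen, was -2.34 ± 0.51 (unadjusted p = 0.000567, adjusted p = 0.555), and with limma 0 of 21281 genes passed that test (1200 at an unadjusted p under 0.05). Among fasted mice the Timp1 difference passed on slide 1 alone (2.96, adjusted p = 0.0375) and without fasted mFoxO-TKO replicate 4 (2.16, adjusted p = 0.0478). Macrophages are among the cells that can express Timp1. Summed over the 11 of 12 macrophage markers tested, levels were at 6980 and 6920 in fed mFoxO-TKO mice on slide 1, at 4740 and 4070 on slide 2, and at 3400 to 4660 in fed WT mice. Fasted mFoxO-TKO mice were at 5390 and 5380 on slide 1 and 3740 and 4050 on slide 2, and fasted WT mice at 3560 to 4440. With fasting 1 of the 11 rose and 1 fell in WT mice, and 1 rose and 2 fell in mFoxO-TKO mice. Between genotypes none of the 11 passed with limma in fed mice (median 0.70, with 6 higher at an unadjusted p under 0.05), and Mrc1 was the only one to pass among fasted mice (0.86 ± 0.26, adjusted p = 0.0456). The part of macrophages in the Timp1 difference was not tested.

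**Figure D5:**
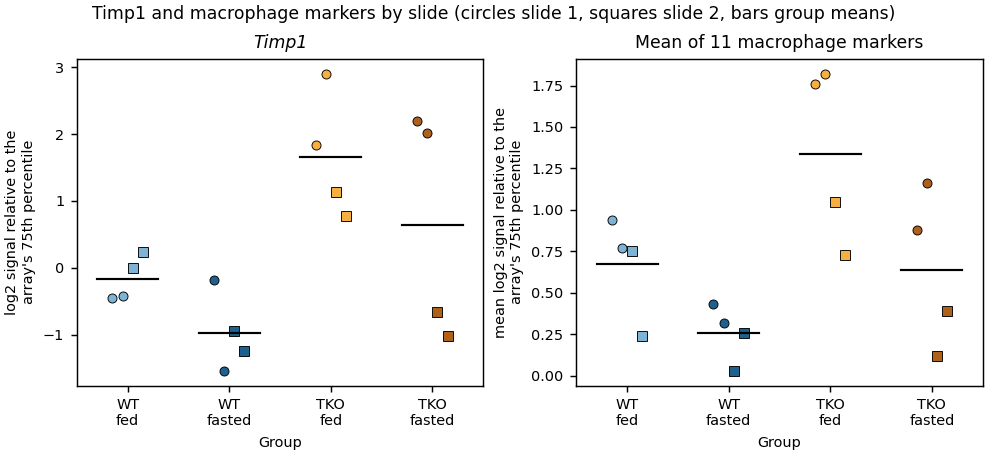
Log2 level of Timp1 (left) and mean log2 level of 11 macrophage markers (right) on the 16 arrays, relative to the array's 75th percentile, by group (circles slide 1, squares slide 2, bars group means). The 4 mFoxO-TKO arrays of slide 1 hold Timp1 levels of 1.83 to 2.90 and the 4 of slide 2 levels of -1.02 to 1.13.

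Promoter sequence was examined for 3 of the 9 members, Timp1, Timp2 and Mmp14, as 250 bases before the gene's start in RefSeq (build GRCm38.p6). Those of the 2 inhibitors are shown because one differed most between genotypes in level and the other is its closest relative on the list. They were searched on both strands for GTAAACA and GTAAATA (FoxO), TGANTCA (AP-1), ACGTG (the core of the hypoxia response element) and the NF-kappaB motif. Capitals mark the single match, an ACGTG that begins at position -82 of Timp1, counted from its start.
Timp1, chrX:20869916-20870165, plus strand: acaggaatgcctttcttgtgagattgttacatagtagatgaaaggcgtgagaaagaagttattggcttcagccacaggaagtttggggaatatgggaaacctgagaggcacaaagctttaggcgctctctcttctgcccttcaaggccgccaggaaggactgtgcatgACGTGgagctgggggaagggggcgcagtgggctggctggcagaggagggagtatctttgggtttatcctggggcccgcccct
Timp2, chr11:118355412-118355661, minus strand: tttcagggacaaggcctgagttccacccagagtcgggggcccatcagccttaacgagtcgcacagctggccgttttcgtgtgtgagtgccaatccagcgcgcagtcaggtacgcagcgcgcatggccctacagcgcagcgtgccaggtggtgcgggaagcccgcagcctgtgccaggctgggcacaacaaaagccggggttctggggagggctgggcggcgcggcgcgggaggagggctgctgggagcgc
The Timp1 stretch lies within the span of the gene Syn1. The only other match among the 3 was an ACGTG on the minus strand of Mmp14 at position -48. Of 32851 mouse promoters of the same length, 16.6% hold ACGTG, 6.75% TGANTCA, 3.17% GTAAACA, 2.73% GTAAATA and 0.356% the NF-kappaB letters. A match is no proof of a bound site, and the absence of the FoxO letters says nothing of sites elsewhere.

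The genes listed as other inhibitors went separate ways. This list also holds genes of the serpin family, and not all of its genes encode inhibitors of metalloproteinases. In WT mice Serpine2 fell by 0.84 ± 0.15, the membrane-anchored inhibitor Reck by 0.80 ± 0.19 and Serpinf1 by 0.69 ± 0.20 (adjusted p = 0.000756, 0.00653 and 0.022). The Serpinf1 call was lost without fed WT replicates 2 or 3 or fasted WT replicate 3 (adjusted p up to 0.0711). Timp4, the inhibitor typical of heart and muscle, rose by 1.0 ± 0.27 in mFoxO-TKO mice (2.01-fold, adjusted p = 0.0313, lost in 6 of the 16 fits without 1 array, adjusted p up to 0.085) and stood at 0.42 in WT mice (adjusted p = 0.319). Of the 8 genes on this list 6 could be tested. In WT mice 1 rose, 3 fell and 2 did not pass (median -0.17, from -0.30 to 0.25 under other scalings and filters). In mFoxO-TKO mice 2 rose, 0 fell and 4 did not pass (median 0.22, from -0.11 to 0.31), or 1 rose and 3 fell without fasted replicate 1.

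Among 15 activators and partners of metalloproteinases, 14 could be tested. In WT mice 1 rose, 1 fell and 12 did not pass (median -0.18), and in mFoxO-TKO mice again 1 rose, 1 fell and 12 did not pass (median -0.14). In WT mice 4 fell with scaling on detected probes, and 5 of 12 fell in the deposited values. Lcn2 (lipocalin 2), listed as a partner of Mmp9, rose by 1.79 ± 0.44 in WT (3.47-fold, adjusted p = 0.00807) and by 4.65 ± 0.44 in mFoxO-TKO mice (25.0-fold, adjusted p = 4.03e-05). Its responses differed by 2.85 ± 0.62 between genotypes (adjusted p = 0.0351), a call lost in 12 of the 16 fits without 1 array (2.54 to 2.95, adjusted p up to 0.0806). Lcn2 rose while Mmp9 was not well above background on any fasted array, and whether their proteins bind each other in this muscle was not tested. Plat, the tissue plasminogen activator, fell by 1.05 ± 0.28 in WT mice (adjusted p = 0.0145). Cd44, a cell-surface anchor of Mmp9 and Mmp14, fell by 1.23 ± 0.35 in mFoxO-TKO mice (adjusted p = 0.04, lost in 11 of the 16 fits without 1 array, adjusted p up to 0.131).

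No member passed between genotypes. In fed mice 0 of the 8 members passed with limma (1 at an unadjusted p under 0.05, Timp1), where 1.02% of all genes passed (0.507% higher and 0.512% lower). Of those calls 49.8% were higher, but 83.3% on slide 1 alone, 30.3% on slide 2 alone, 66.4% without fed mFoxO-TKO replicate 4 and 34.6% without fed mFoxO-TKO replicate 1. In fed mice the members' median was 0.22 against 0.01 over all genes. In fasted mice 0 of 8 passed (1 at an unadjusted p under 0.05, again Timp1), where 9.36% of all genes passed (4.39% higher and 4.97% lower, 46.9% of them higher, and 59.9% with the scaling on detected probes), with a median of 0.26 against 0.04. None of the 8 passed in the test of the difference between the fasting responses (0 at an unadjusted p under 0.05), where 1.15% of all genes passed (0.423% higher and 0.724% lower), and the median of those differences was 0.00. Besides Timp1, Loxl1 was the only member whose brightest probe did not overlap between genotypes, in fed mice, where 5.47% of all genes stood higher and 3.68% lower without overlap. In fasted mice no member was free of overlap, against 6.15% of all genes higher and 6.65% lower. It was 0.45 ± 0.24 higher in mFoxO-TKO mice (adjusted p = 0.637), by 0.45 on each slide, and its dimmer probe gave 0.44, also without overlap. In fasted mice Loxl1 was 0.50 ± 0.24 higher (adjusted p = 0.254), by 0.83 on slide 1 and 0.16 on slide 2, and it passed without fasted mFoxO-TKO replicate 3 (0.73, adjusted p = 0.0449). For the other lysyl oxidases the 95% intervals of the knockout difference lay between -0.50 and 0.79 in both feeding states.

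Some related genes passed between genotypes in fasted mice, where 9.36% of all genes passed (4.39% higher and 4.97% lower). Of the 22 metalloproteinases tested, 3 were higher in fasted mFoxO-TKO than in fasted WT mice, 0 were lower and 19 did not pass (median 0.31). They were Adamts8 (1.33 ± 0.31, 2.51-fold, adjusted p = 0.0119), Adamts4, which cuts aggrecan (0.96 ± 0.28, adjusted p = 0.0407, lost in 7 of the 16 fits without 1 array, adjusted p up to 0.111), and Adam17, the shedding enzyme of tumour necrosis factor (0.63 ± 0.15, adjusted p = 0.0131). In fed mice the same genes stood at -0.17, 0.88 and -0.07, and the differences between the feeding states did not pass (adjusted p = 0.135, 0.978 and 0.156). Of the 24 collagen and elastic fibre genes Col5a1 alone was higher (1.01 ± 0.26, 2.02-fold, adjusted p = 0.0189, and 0.0602 without fasted WT replicate 3) and 23 did not pass. In fed mice Col5a1 stood at 0.40, and its difference between the feeding states did not pass (adjusted p = 0.641). Lcn2 was 3.74 higher in fasted mFoxO-TKO mice (13.3-fold, adjusted p = 4.9e-05), the only activator or partner of 14 to pass. With scaling on detected probes 4 of 14 were higher there, and in the deposited values 4 of 12. Scx, the transcription factor of tendon cells and a known activator of collagen genes, was the 1 tendon marker of 7 to pass, at 2.83 ± 0.31 higher (7.11-fold, adjusted p = 2.69e-05). In the cross-link partner, collagen folding and inhibitor lists 0 of 15, 0 of 14 and 0 of 6 genes passed with limma among fasted mice (0, 1 and 1 at an unadjusted p under 0.05). Among fed mice 0 genes of any of the 7 lists passed with limma (at most 4 of a list at an unadjusted p under 0.05).

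The next list holds transcription factors and cytokines known to act on lysyl oxidase and metalloproteinase genes. Of 36 regulators 31 could be tested, and in WT mice 9 rose, 4 fell and 18 did not pass (median 0.19), while in mFoxO-TKO mice 4 rose, 1 fell and 26 did not pass (median 0.06). Cebpd rose by 3.31 ± 0.38 in WT and 1.82 ± 0.38 in mFoxO-TKO mice (adjusted p = 2.28e-05 and 0.00755), and Cebpb by 1.94 ± 0.31 in WT mice (adjusted p = 0.000688, with 1 fasted WT array left out). Il6 rose by 1.76 ± 0.51 in WT mice (adjusted p = 0.022, lost without fed WT replicates 1 or 4 or fasted WT replicates 1 or 3, adjusted p up to 0.0669). Between genotypes 1 of the 31 was higher, 3 were lower and 27 did not pass in fasted mice, against 4.39% of all genes higher and 4.97% lower. In mFoxO-TKO mice Ccn2, a matrix growth factor, rose by 0.97 ± 0.24 (adjusted p = 0.0181, lost without fed replicate 2 or fasted replicate 4, adjusted p = 0.0624 and 0.0583), and Epas1 (HIF-2 alpha) rose by 0.65 ± 0.14 (adjusted p = 0.00834). Snai2 fell there by 0.77 ± 0.21 (adjusted p = 0.0332, lost in 6 of the 16 fits without 1 array, adjusted p up to 0.109). In WT mice Ccn2, Epas1 and Snai2 moved the same way and also passed, at 0.74, 0.40 and -0.79 (adjusted p = 0.0354, 0.0486 and 0.0135). Their responses differed between genotypes by 0.23, 0.25 and 0.02, which did not pass (adjusted p = 0.906, 0.769 and 0.99).

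For 3 regulators the fasting response itself differed between genotypes, among 244 of 21281 genes that passed that test. Smad3, which carries the signal of TGF-beta to Lox and collagen genes, fell by 1.28 in WT mice (adjusted p = 5.75e-05) and stood at 0.21 in mFoxO-TKO mice (adjusted p = 0.515), a difference of 1.48 ± 0.23 (adjusted p = 0.00485). Junb, a subunit of AP-1, rose by 1.65 ± 0.25 in WT mice (adjusted p = 0.000242) and stood at -0.54 in mFoxO-TKO mice, a difference of -2.19 ± 0.35 (adjusted p = 0.00572). Arnt, the partner of the hypoxia-inducible factors, rose by 1.18 in WT mice (adjusted p = 1.64e-05) and stood at 0.22 in mFoxO-TKO mice, a difference of -0.96 ± 0.18 (adjusted p = 0.0167). Each of these calls was kept without any 1 array. In fasted mFoxO-TKO against fasted WT mice Smad3 was 1.5 ± 0.16 higher (adjusted p = 2.54e-05), while Arnt (-1.09 ± 0.13), Junb (-1.46 ± 0.25) and Cebpd (-1.61 ± 0.38) were lower (adjusted p = 5.41e-05, 0.00129 and 0.0117). The corresponding values of Lox were an interaction of -0.04 ± 0.34 and a fasted difference of 0.20 ± 0.24 (adjusted p = 0.707). Whether these regulators act on Lox in this muscle was not tested.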

How the data were processed

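The levels of 9 matrix enzyme and inhibitor genes were read from 16 single-colour (Cy3) arrays of mouse quadriceps, 4 per group. The members and all gene lists were chosen with earlier results of these data known. Per the file headers, the scanner images were read with Agilent Feature Extraction 11.0.1.1, while the submitters' processing notes name version 9.5. The deposited scanner files give for each spot the processed signal, an intensity after background correction, and the median and background intensity. They also hold other marks of 0 or 1 per spot, set by the authors' scanner software per the file headers, for well above background, saturated (0 spots), uneven or outlying. The authors' deposited value table holds a score per probe, found here to be the processed signal times 1 factor per array (linear, not centred, the 75th percentile at 100 on every array).

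Here log2 of the processed signal minus the array's 75th percentile was used. Control spots and uneven or outlying spots were left out (0.143% to 3.28% of spots per array), spots of a probe were averaged, and a probe was kept if at least 1 group had it well above background on all 4 arrays. Each gene was represented by its brightest kept probe, which gave 28571 probes and 21281 genes, 14150 of them with a symbol. Symbols come from the RefSeq accessions of the probes (assembly GRCm38.p6), and a probe without a matching accession kept its systematic name from the files. The file headers name mm9 as the build, so no coordinates of the arrays are given. One limma 3.58.1 model (R 4.3.3) of the 4 group means gave 5 contrasts with Benjamini-Hochberg adjustment over all genes, with 12 residual degrees of freedom. Scripts were tested on simulated data. From each list the text names at most 4 passing genes with the largest change per contrast, and for each member that passed the 3 genes with the nearest course. A gene on one of these lists and a gene of like course are not reported here. Alternatives were background correction (normexp, offset 50, on the median intensity, since the planned mean intensity was not among the columns used), scaling, filters, probe choice, slide, replicate number, the deposited value table, the variance model and leaving out each array. The number of arrays limits the precision.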

Additional observations from a re-analysis of the deposited data

Results flagged for a closer look

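In fasted mFoxO-TKO mice replicate 2 stood apart from the others for Lox. Its log2 level was 0.55, while the other 3 arrays lay between 1.19 and 1.26. The gap to its nearest neighbour was 0.901 of the group's range, above the 95% critical value of Dixon's test for 4 samples. Of 36 such groups (9 members in 4 groups) this was the only one past that value, and chance alone passes it in about 1 group in 20. With this array left out Lox rose by 1.71 in mFoxO-TKO mice, and by 1.53 with it.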

How the results depend on the processing

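The number of members called was 4 with fasting in WT mice, and it was 0 on slide 1 alone (2 arrays per group) and 3 to 6 when each array was left out in turn. With fasting in mFoxO-TKO mice it was 3 as reported, 5 with scaling on probes detected on all arrays, 0 on slide 1 alone, 5 on slide 2 alone and 1 to 5 without 1 array (1 without fed or without fasted mFoxO-TKO replicate 3, 5 without fasted mFoxO-TKO replicate 1). In fasted mFoxO-TKO against fasted WT mice it was 0 as reported, 1 on slide 1 alone and 0 to 1 without 1 array. In fed mice and for the interaction it was 0 under every setting run. The replicate number as a block (replicate block) gave 5 members in WT, 4 in mFoxO-TKO mice and 0 in the other contrasts. Same-numbered arrays correlated at 0.06 to 0.37 in their deviations from group means, which does not settle a pairing, although 13 of 16 arrays correlated best with their own number. Of 211 alternative values of the member changes that passed, 177 passed and 0 had the other sign. Of 61 calls of named list genes 20 were lost without at least 1 array and 53 under at least 1 other setting, 1 slide alone included, and 0 changed sign. These checks of the lists were chosen after seeing the data. Counts over all genes moved most on slide 1 alone, from 4426 to 741 with fasting in WT, 1814 to 67 in mFoxO-TKO mice, 1991 to 352 between fasted genotypes and 244 to 5 for the interaction. On slide 2 alone they were 33 (of 217) between fed genotypes and 60 for the interaction. With fasting in mFoxO-TKO mice they were 1182 after normexp, 2946 with scaling on detected probes, 992 with no filter, 2800 with the slide block and 3183 with the replicate block. Between fed genotypes these settings in order gave 130, 392, 109, 422 and 410, and the deposited values 326. Between fasted genotypes the scaling on detected probes, the slide block and the replicate block gave 3390, 3026 and 3377. For the interaction they gave 610, 564 and 697, no filter 79, the deposited values 695 and uneven spots kept 424. Dim probes such as those of Mmp9 and Mmp14 are limited by signal over background.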

Other observations

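The genes with the course most like that of Timp1 over the 16 arrays, looked up after its values were seen, were Serpinb1a at a root mean square difference of 0.58, then Mt3 and Bcl2a1d at 0.62, where the root mean square of Timp1 itself was 1.32. Scimp and Pcbd1 followed at 0.63 and Igtp at 0.64. Pcbd1 was 1.80 ± 0.45 higher in fasted mFoxO-TKO than in fasted WT mice (limma, adjusted p = 0.0171). The monocyte chemoattractant Ccl2 ranked 7th at 0.65, and it is named outside the rule of the 3 nearest genes. Ccl2 fell by 2.05 ± 0.59 with fasting in WT mice (limma, adjusted p = 0.0218) and was 1.64 ± 0.59 higher in fed mFoxO-TKO than in fed WT mice, which did not pass (adjusted p = 0.296).

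Satellite cell markers, another group of cells within muscle, had summed levels of 910 to 1590 in fed mFoxO-TKO mice and of 797 to 872 in fed WT mice. In fasted mice the sums were 877 to 1260 in mFoxO-TKO and 652 to 820 in WT mice. The fed mFoxO-TKO sums were 1590 and 1400 on slide 1 and 974 and 910 on slide 2. The sums did not overlap between genotypes, but the mean log2 level of the same markers did, at -0.01 to 0.47 in fed mFoxO-TKO and -0.18 to 0.04 in fed WT mice, and at -0.57 to 0.47 and -0.83 to -0.17 in fasted mice. Of the 5 markers tested 0 passed with limma between genotypes (1 higher in fed and 2 higher in fasted mice at an unadjusted p under 0.05).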
